A study of Mus musculus with 13 samples.

Results

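Thymic epithelial cells (TEC) made from fibroblasts were compared, gene by gene, with TEC of the mouse fetus. The groups compared hold 5 of the 13 RNA libraries of the study: 3 of induced TEC (iTEC) cultures at day 10 and 2 of fetal TEC of stage E15.5. The iTEC began as mouse embryonic fibroblasts (MEF) of stage E13.5 that carried 1 iFoxn1 allele, a copy of Foxn1 that is silent until the Cre recombinase acts. Cre came from the plasmid pPGK-Cre-bpA, put into the cells by nucleofection, and the libraries were made 10 days later. No Epcam sort is named for the day 10 cells, and the cultures are treated here as unsorted. The same protocol text, with a flow sort 48 hours after nucleofection, stands under every sample, fetal TEC included, and the genotype field reads N/A throughout. The labels do not say how the fetal TEC were isolated. All 13 libraries entered the fit that gave the p-values. These p-values measure the spread between libraries of the same group, estimated over all groups of the study. The labels do not say that libraries of a group came from separate cultures or embryos, so this spread may be technical. The 2 MEF libraries, whose columns are named for cells without Cre, are used for the level before induction, and they also held macrophage markers.

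Foxn1 is the transcription factor that drives TEC differentiation, and without it the thymus holds no functional epithelium. Cortical TEC attract lymphoid progenitors, commit them to the T lineage through the Notch ligand Dll4, and select thymocytes with peptides cut by a thymus-specific proteasome. Medullary TEC show tissue antigens under control of Aire and remove self-reactive cells, and both kinds carry MHC class II on their surface. The question put to the data was which of these genes were within 2-fold of the fetal level in the day 10 cultures and which were still off.

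The 3 day 10 libraries held 59976045, 35835971 and 35805780 counts, and the fetal libraries 66658700 and 63672749. Levels are given as CPM, the counts of a gene relative to the TMM-scaled total of its library, and are not corrected for transcript length. On this scale 3 counts stand for 0.0459 to 0.0776 CPM. The fetal pair was far more uneven than the day 10 libraries: the median chi-square between replicates was 188 times its sampling expectation, against 1.81 to 2.89 times. Ribosomal precursor RNA (Rn45s) took 3.40 to 3.62% of counts at day 10 and 0.0706 to 0.0789% in fetal TEC. The 7 defining TEC markers (Foxn1, Epcam, Krt8, Psmb11, Prss16, Ccl25 and Dll4) were each at 200.5 CPM or more in both fetal libraries. Library preparation and cell source cannot be told apart in this comparison.

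Some fetal values may stand beside the wrong gene symbol. In both fetal libraries and in replicate 2 of the day 12 Epcam-positive cells, 697 rows in 31 blocks correlated better with the rest of the study when their symbols were read in a second order. The symbols stand in an order that ignores the hyphen, and the second order is a sort that counts it. Over these rows the Spearman correlation with the mean of the 10 remaining libraries was 0.40 to 0.43 as deposited and 0.61 to 0.71 when read in the second order. Each of these 10 libraries, set against the mean of the others, gave 0.71 to 0.85 and 0.42 to 0.51. These 697 rows, 150 of them among the tested genes, stayed in the fit but were left out of every list. They include H2-K1, H2-D1, H2-Eb1, H2-DMa and other H2 genes, but not H2-Aa or H2-Ab1.

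Markers listed for other cell types summed to more in fetal TEC than at day 10 in each of 5 lists. The 19 thymocyte markers summed to 1920.0 and 846 CPM in the fetal libraries and 100.3, 95.7 and 93.6 CPM at day 10, where 11 of them had no count; 19 passed the test, all lower at day 10. Cd3g, a chain of the T cell receptor complex, was at 196 and 146 CPM in fetal TEC and had no count at day 10. The tyrosine kinase Lck was at 656 and 283 CPM against 0.217, 0.128 and 0 CPM, Cd4 at 30.6 and 18.0 CPM against 0, and Cd8a at 105 and 23.2 CPM against 0.464, 0.461 and 0.440 CPM. The 18 macrophage and dendritic cell markers summed to 984 and 1260.5 CPM against 17.2, 17.0 and 16.4 CPM, led by Laptm5, Lyz2 and Ctss. Of these 18 genes, 10 had no count at day 10, 13 were lower and 5 did not pass the test. They summed to 3744 and 3982 CPM in MEF, above both fetal libraries, so MEF levels are not those of fibroblasts alone. The other lists summed to less in MEF than in fetal TEC. Endothelial markers (13 genes, 5 with no count at day 10) summed to 253 and 193 CPM against 50.1, 52.1 and 44.3 CPM, with Esam, Plvap, Ramp2 and Egfl7 among those that were lower; 1 was higher at day 10, 11 lower and 1 did not pass the test. Erythroid markers (9 genes, 6 with no count at day 10) summed to 1361 and 802 CPM against 2.88, 2.31 and 2.92 CPM, and their alpha globin genes Hba-a1 and Hba-a2 are near-identical copies. All 4 parathyroid markers (Gcm2, Pth, Casr and Chga) summed to 231 and 241 CPM and had no count at day 10. Fibroblast and mesenchyme genes, not among these lists, were present in fetal TEC too. The 35 genes followed below summed to 9038 and 6812 CPM there, against 39785, 40216 and 38399 CPM at day 10. In bulk RNA, fewer cells of a type and less RNA per cell cannot be told apart, and the part of these cells in the differences below was not tested.

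**Figure D1:**
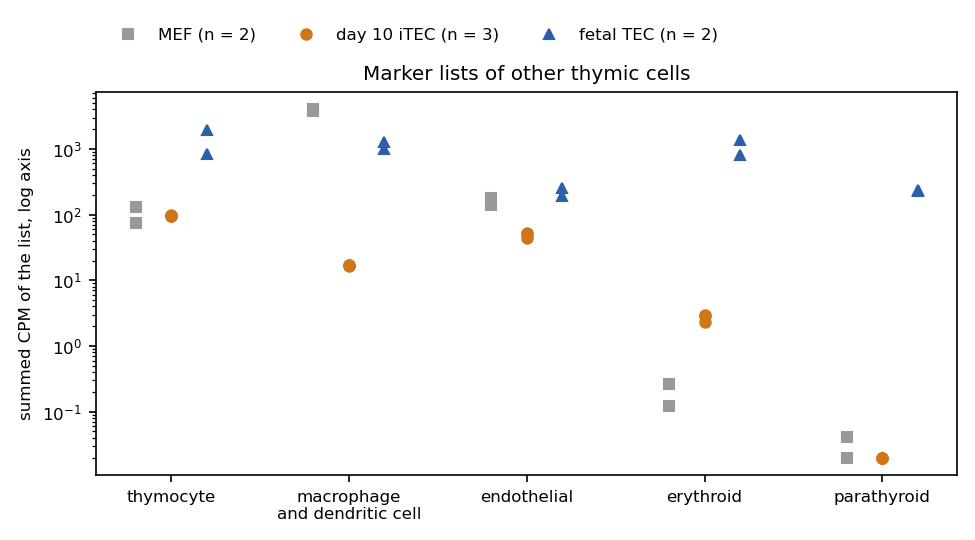
Summed level of 5 marker lists in each library, in CPM on a log axis, for MEF (grey squares), day 10 iTEC (orange circles) and fetal TEC (blue triangles); a sum of 0 is drawn at 0.02 CPM. Both fetal libraries lie above all 3 day 10 libraries for each list.

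Across the genome, 10085 of 17004 tested genes (59.3%) differed between day 10 iTEC and fetal TEC in edgeR's quasi-likelihood test at a Benjamini-Hochberg adjusted p under 0.05. Of these, 4692 (27.6% of tested genes) were higher at day 10 and 5393 (31.7%) lower. All day 10 values lay on 1 side of both fetal values for 83.6% of tested genes, so groups that stand apart are the common case here. With transcript length taken into account, as described next, the split became 3351 higher and 6317 lower. The median log2 difference of all tested genes was -0.10; it moved to -0.25 with DESeq2 size factors, to 0.17 with library size alone and to -0.66 with the length offset, and differences of single genes move with it.

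Relative to day 10, fetal TEC libraries were poor in long transcripts. Within a library, the level of the 16362 tested genes with a known length correlated with transcript length at a Spearman rho of -0.07 and -0.11 in the fetal libraries. The same rho was 0.18, 0.18 and 0.18 at day 10 and 0.16 to 0.19 over 10 libraries. Replicate 2 of the day 12 Epcam-positive cells, at -0.07, was the only other library with a negative value. The log2 difference between day 10 and fetal TEC rose with length at a rho of 0.27 across genes, which share libraries and are not independent.

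The trend was not a straight line. Over 10 groups of genes of equal number, ordered by transcript length, the median log2 difference went from -0.50 in the shortest group (up to 744 bases) to -1.33 in the third (1030 to 1380 bases). It then climbed to 0.10 in the seventh and 2.09 in the longest group (4792 bases and more). In the longest group, 54.1% of genes were called higher at day 10 and 9.71% lower, and in the third group 14.1% higher and 47.4% lower. A gene-wise offset fitted on the length trend of each library left medians between -0.92 and -0.40 in all 10 groups. The offset moves single genes by their length and also by a general shift, which took the median of all tested genes to -0.66. Among genes given below with a difference, it left the call but moved the size by over 1.5 times for Pax9 (-7.26), Trp63 (-7.00), Cxcl12 (-6.34), Ciita (-11.34), Cdh1 (-4.35), Cdh3 (-5.93), Cd274 (-8.04), Tnfrsf11a (-6.69), Col1a1 (3.34), Postn (4.75), Jag1 (4.44) and Prrx1 (6.19). The part of RNA quality and library preparation in this trend was not tested.

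**Figure D2:**
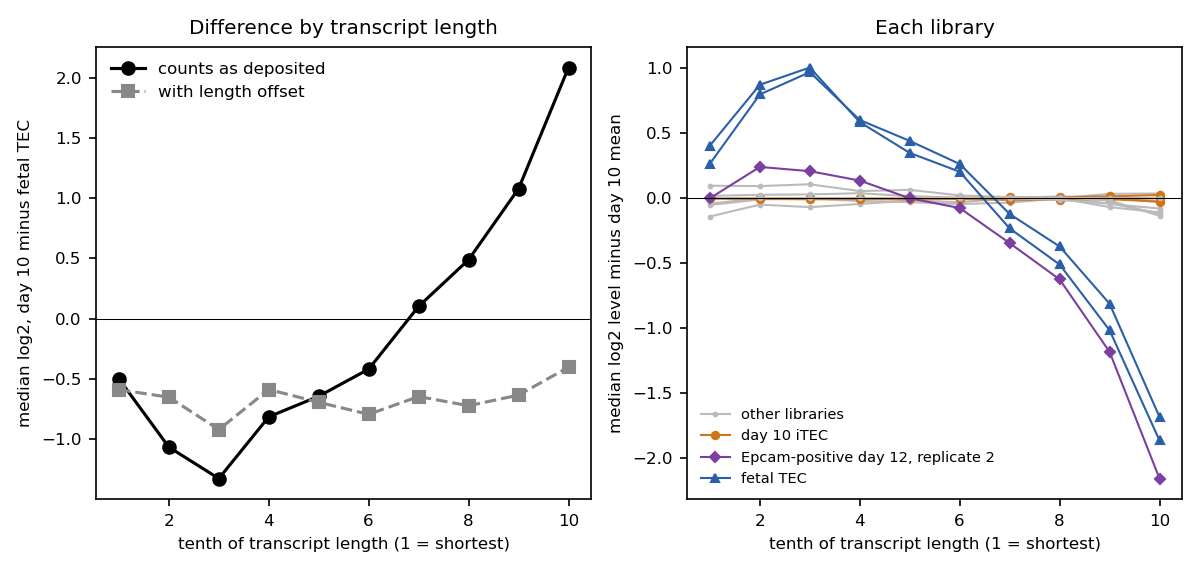
Left, median log2 difference (day 10 minus fetal TEC) of tested genes by group of transcript length (1 to 10, shortest to longest), from the counts as deposited (black) and with the length offset (grey). Right, median log2 level of each library minus the day 10 mean by length group, where both fetal libraries (blue) and Epcam-positive replicate 2 (purple) fall with length beyond the third group and the other libraries stay near 0.

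TEC genes were followed in 13 lists by role, with 171 distinct genes, of which 162 were tested and had a row not in doubt. Of these, 32 were higher at day 10, 80 were lower and 50 did not pass the test. The called share was 69.1%, against 59.3% of all tested genes (27.6% higher and 31.7% lower). These shares over all tested genes are the background for the calls of every list. Their median log2 difference was -1.66, against -0.09 over all tested genes outside the rows in doubt. By size, 28 genes lay within 2-fold of fetal TEC by their fitted value (24.7% of all tested genes did), 37 lay more than 2-fold above (29.5%) and 70 more than 2-fold below (30.1%). A further 25 were off, which here means under 1 CPM in all 3 day 10 libraries and at least 5 CPM in both fetal libraries (4.86% of all tested genes), and 2 were under 1 CPM on average in both groups. The day 10 mean was under 10% of the fetal mean for 57 of the genes and under 1% for 26.

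The 28 genes within 2-fold included Pdia3, Calr, Foxn1, Wnt4, Jup, Id3, Lamb3, Tnfrsf11b, F11r, Fgfr2, Ltbr, Jag2, Ovol1, Id2, Enpep, Id1, Erap1, Notch1, Heyl, Klf5, Spry1, Eya1, Krt6a, Six4, Grhl3, Crb3 and Avpr1a, listed by falling fetal CPM. No gene of the class passed edgeR's test, 0 had an unadjusted p under 0.05, and DESeq2 called 1 (Pdia3); this does not show that the levels were equal. Without the Epcam-positive pair in the fit 9 of the 28 passed, and in a fit of the 5 libraries alone 12 did; with the length offset 10 passed and with library size alone 2. The 95% interval of the difference lay wholly inside 2-fold for 5 of them: Foxn1, Wnt4, Calr, Id2 and Six4. In 9 of the 28 the MEF mean was already at least 50% of the fetal mean (Avpr1a, Calr, Erap1, Id2, Ltbr, Notch1, Pdia3, Six4 and Spry1), and in the other 19 it was lower. The class moved with the length offset, which also shifted the median of all tested genes to -0.66. With this offset 16 of the 28 stayed within 2-fold, and those that came to lie more than 2-fold below included Avpr1a, Enpep, F11r, Fgfr2, Grhl3, Heyl, Jag2, Notch1, Pdia3, Six4 and Wnt4. In that fit Six4 differed by -2.59 (adjusted p = 0.00186), Heyl by -2.58 (adjusted p = 0.00238) and Notch1 by -1.36 (adjusted p = 0.00822), and all 3 were lower at day 10.

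The 25 genes that were off included H2-Ab1, H2-Aa, Tbata, Ccl21a, Cd40, Ciita, Ctss, Fezf2, Cldn7, Spib, Aire, Cldn3, Isl1, Tjp3, Krt15, Mfng, Grhl2, Ocln, Dll1, Ehf, Dll3, Marveld2, Pou2f3 and Cldn6. The definition nearly fixes the outcome of the test, so no count of calls is given for the class. With CPM corrected by the length offset, the same 25 genes met the definition. Ccl21a, Ctss, Fezf2, Aire, Tjp3, Krt15 and Dll3 had no count in any day 10 library. In 22 of the 25 both MEF libraries were under 1 CPM as well. The exceptions were Cd40, Mfng and Ctss, and Ctss (cathepsin S), which macrophages also make, stood at 160.2 and 224 CPM in MEF. At the edge of the class, Marveld2 reached 0.983 CPM in the highest day 10 library, whereas Pax1 (up to 1.06 CPM) and Prss16 (up to 1.97 CPM) exceeded 1 CPM and count as below. At the 2-fold edge, Id3 (-0.95) and Eya1 (-0.93) fell just inside, and Pkp1 (1.02) and Dll4 (-1.12) just outside.

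**Figure D3:**
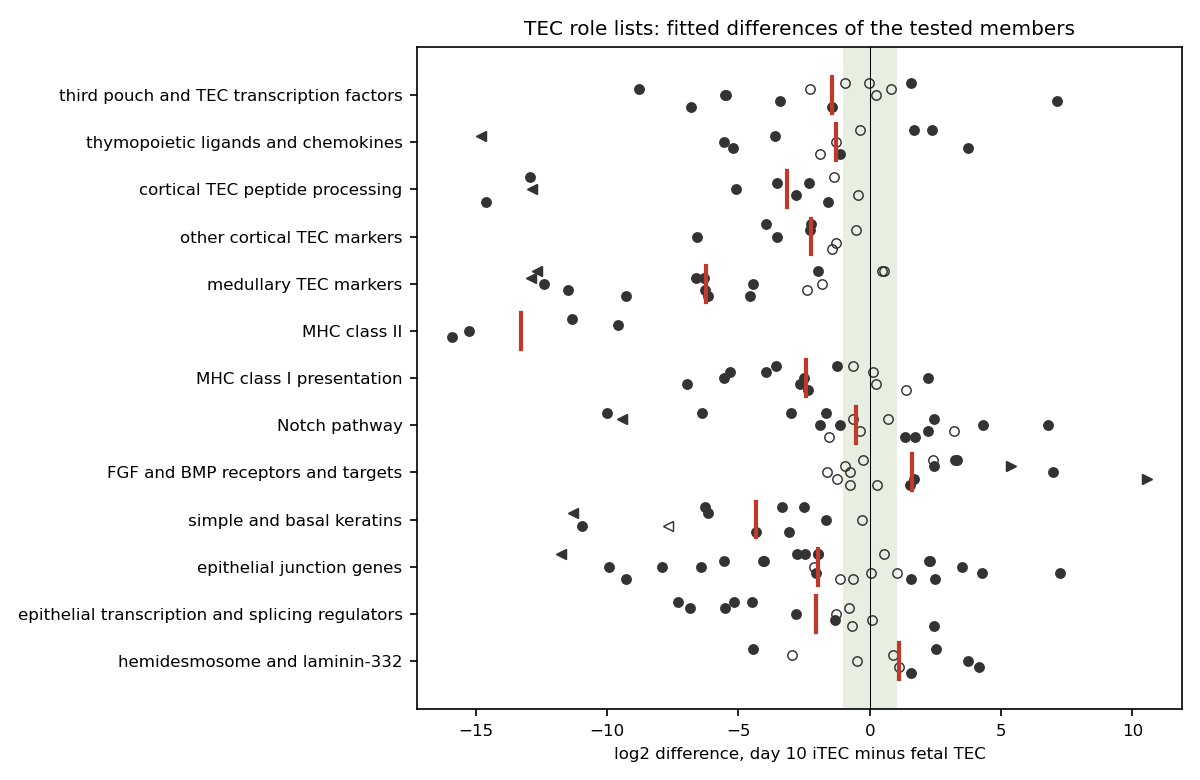
Log2 difference (day 10 minus fetal TEC) of each tested member of the 13 role lists; filled symbols passed the test, triangles are bounds or counting ratios where 1 group had 3 counts or fewer, red bars are list medians, and green shading marks 2-fold. Every MHC class II point lies left of -9, while the FGF and BMP and hemidesmosome medians lie right of 0.

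Promoters are shown for the 2 genes of each class with the highest fetal CPM that have an entry in the RefSeq table (GRCm38.p6), as the 250 bases before the start of the gene, 5′ to 3′ on the gene's strand. They set the regulatory sequence of genes within 2-fold of fetal TEC beside that of genes that were off. Capitals mark GACGC, the core of the published Foxn1 motif, and CCAAT, the box bound by NF-Y, on either strand; no GACGC match overlaps a CCAAT match in these windows. Pdia3, a disulfide isomerase of the peptide loading complex, lies at chr2:121413652-121413901, plus strand. Calr, the chaperone calreticulin, lies at chr8:84846932-84847181, minus strand. H2-Aa, the alpha chain of the class II molecule I-A, lies at chr17:34287824-34288073, minus strand. Tbata, a thymus, brain and testis associated gene of cortical TEC, lies at chr10:61171714-61171963, plus strand.
Pdia3 promoter: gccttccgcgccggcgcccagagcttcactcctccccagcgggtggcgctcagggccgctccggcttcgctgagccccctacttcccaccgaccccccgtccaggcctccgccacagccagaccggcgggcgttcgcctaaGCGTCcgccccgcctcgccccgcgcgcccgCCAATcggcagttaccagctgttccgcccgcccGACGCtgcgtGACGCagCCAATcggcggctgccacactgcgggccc
Calr promoter: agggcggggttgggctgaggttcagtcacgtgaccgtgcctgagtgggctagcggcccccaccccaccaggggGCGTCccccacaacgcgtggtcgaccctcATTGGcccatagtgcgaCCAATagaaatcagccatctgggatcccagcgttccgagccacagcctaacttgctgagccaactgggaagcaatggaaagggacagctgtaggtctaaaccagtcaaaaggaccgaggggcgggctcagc
H2-Aa promoter: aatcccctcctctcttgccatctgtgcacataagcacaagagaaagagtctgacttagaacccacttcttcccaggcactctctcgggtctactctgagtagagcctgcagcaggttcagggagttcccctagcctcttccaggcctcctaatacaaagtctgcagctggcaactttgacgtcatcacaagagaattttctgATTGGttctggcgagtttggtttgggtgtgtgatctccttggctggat
Tbata promoter: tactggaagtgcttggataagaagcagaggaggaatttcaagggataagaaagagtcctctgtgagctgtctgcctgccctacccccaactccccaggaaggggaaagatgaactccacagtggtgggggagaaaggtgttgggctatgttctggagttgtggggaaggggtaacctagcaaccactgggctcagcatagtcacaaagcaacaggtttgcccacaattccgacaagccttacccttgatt
The Pdia3 window holds 3 GACGC and 2 CCAAT matches, and the Calr window 1 and 2. The H2-Aa window holds 1 CCAAT match and no GACGC, and the Tbata window holds neither. Among all 32851 promoters of the table, 22.6% hold GACGC and 33.8% hold CCAAT in these 250 bases. Whether either motif goes with a class was not tested.

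Foxn1 itself stood at 440.4, 431 and 422 CPM at day 10 and 362 and 362 CPM in fetal TEC, after 18.3 and 12.997 CPM in MEF. All 3 day 10 libraries were slightly above both fetal ones, by 0.25 ± 0.25 (SE) on the log2 scale (adjusted p = 0.394, 95% interval -0.30 to 0.80). Counts do not separate the iFoxn1 transcript from that of the endogenous gene (chr11:78357577-78386558, mm10). With the length offset the sign turned, to -0.92 (adjusted p = 0.0404), and in a fit of only these 5 libraries the difference was 0.23 (adjusted p = 0.0423).

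The thymus arises from endoderm of the pharyngeal pouches. Of 13 tested transcription factors and markers of that pouch and of TEC, Foxn1 included, 2 were higher at day 10, 6 lower and 5 did not pass the test, so 61.5% were called against 59.3% of all tested genes, with a median log2 difference of -1.45. Pax1, a paired box factor of the pouch, was at 1.01, 0.974 and 1.06 CPM at day 10 and 391 and 500.3 CPM in fetal TEC, a difference of -8.78 ± 0.73 (SE, adjusted p = 0.00012). Its relative Pax9 was at 1.98, 2.05 and 2.30 CPM against 72.9 and 114 CPM, or -5.47 ± 0.68 (SE, adjusted p = 0.000509). Both were lower at day 10 than in MEF, where Pax1 stood at 6.25 and 6.68 CPM and Pax9 at 18.2 and 11.5 CPM. Trp63, the p63 factor that maintains stratified and thymic epithelial progenitors, was at 4.27, 3.64 and 4.06 CPM against 159 and 206 CPM, or -5.51 ± 0.89 (SE, adjusted p = 0.00181). The LIM homeobox factor Isl1 stayed under 1 CPM in each day 10 library against 68.8 and 102 CPM. Plet1, a surface marker of fetal TEC progenitors kept in the same list, was also lower (-3.44 ± 0.90 SE, adjusted p = 0.0113).

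Eya1, a transcriptional cofactor and phosphatase needed for pouch development, was at 13.7, 12.8 and 13.2 CPM against 29.1 and 21.1 CPM; the groups did not overlap, but the difference of -0.93 ± 0.65 (SE) did not pass (adjusted p = 0.232), whereas without the Epcam-positive pair in the fit it did (adjusted p = 0.00675). Hoxa3 and Meis1 differed in the other direction. Hoxa3, which thymus formation requires, was at 47.9, 49.1 and 43.7 CPM against 0.505 and 0.142 CPM, or 7.15 ± 0.78 (SE, adjusted p = 0.000639), and the value was 8.36 without fetal replicate 1 and 6.54 without fetal replicate 2. Meis1 was higher at day 10 by 1.58 ± 0.30 (SE, adjusted p = 0.00286) from the counts as deposited, but its sign turned with the length offset (-0.26, adjusted p = 0.53). Both genes were already above the fetal libraries in MEF, Hoxa3 at 19.6 and 20.4 CPM and Meis1 at 42.9 and 52.5 CPM.

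Of 11 tested ligands and chemokines that act on thymocytes, 3 were higher at day 10, 5 lower and 3 did not pass the test, with a median of -1.29; Ccl19 had too few counts to test. In CPM not corrected for length, Dll4, Ccl25 and Wnt4 stood at 46.0%, 41.0% and 77.6% of the fetal mean. Dll4, the Notch ligand that commits progenitors to the T lineage, had no count in either MEF library and stood at 101, 96.4 and 104 CPM at day 10 against 200.5 and 237 CPM in fetal TEC. Its difference of -1.12 ± 0.41 (SE) passed the test only narrowly (adjusted p = 0.0383): it did not pass with library size alone (-0.80, adjusted p = 0.0542), with the replicate block (adjusted p = 0.0778), or without any 1 of the 5 libraries (adjusted p from 0.0804 to 0.146). With the length offset it was -2.65 (adjusted p = 0.0112).

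Ccl25, the chemokine that draws progenitors through the receptor Ccr9, went from 1.82 and 2.03 CPM in MEF to 1578, 1554 and 1725 CPM at day 10, against 3027 and 4871 CPM in fetal TEC. The day 10 libraries lay below both fetal ones, and the log2 difference of -1.29 ± 0.73 (SE) did not pass (adjusted p = 0.144) but did without the Epcam-positive pair in the fit (adjusted p = 0.000249). Wnt4, a Wnt ligand made by TEC, was at 241, 233 and 245 CPM against 307 and 311 CPM; the difference of -0.37 ± 0.28 (SE, adjusted p = 0.265) became -2.13 with the length offset (adjusted p = 0.0121).

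Several ligands were lower at day 10. Cxcl12, which holds and guides progenitors through Cxcr4, stood at 35.9, 34.3 and 35.5 CPM against 1209 and 1411 CPM in fetal TEC, or -5.22 ± 0.30 (SE, adjusted p = 9.58e-06), and its MEF level had been 382 and 333 CPM. Il7, the cytokine that keeps early thymocytes alive, was at 1.86, 1.72 and 2.15 CPM against 73.2 and 106 CPM, or -5.55 ± 1.17 (SE, adjusted p = 0.00598). Il15 was lower too (-3.596 ± 0.51 SE, adjusted p = 0.000619). Ccl21a, a medullary chemokine that acts on Ccr7, had no count at day 10 and was at 301 and 987 CPM in fetal TEC (adjusted p = 0.00157). The fetal libraries differ so much that no fold is given, and the gene has near-identical copies, so the single gene is uncertain.

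Kitl, Flt3l and Bmp4 were higher at day 10. Kitl, the stem cell factor that binds Kit on early thymocytes, was at 169, 163 and 189 CPM at day 10 and 12.6 and 13.7 CPM in fetal TEC, or 3.72 ± 0.33 (SE, adjusted p = 0.000113). Flt3l, a growth factor for lymphoid progenitors, was at 14.5, 14.2 and 14.4 CPM against 4.76 and 4.08 CPM, or 1.70 ± 0.33 (SE, adjusted p = 0.00353). Bmp4, a signal in pouch and thymus growth, differed by 2.37 ± 0.45 (SE, adjusted p = 0.00376), and by 3.24 without fetal replicate 2. All 3 genes kept their sign with the length offset, at 4.16, 2.10 and 2.36.

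**Figure D4:**
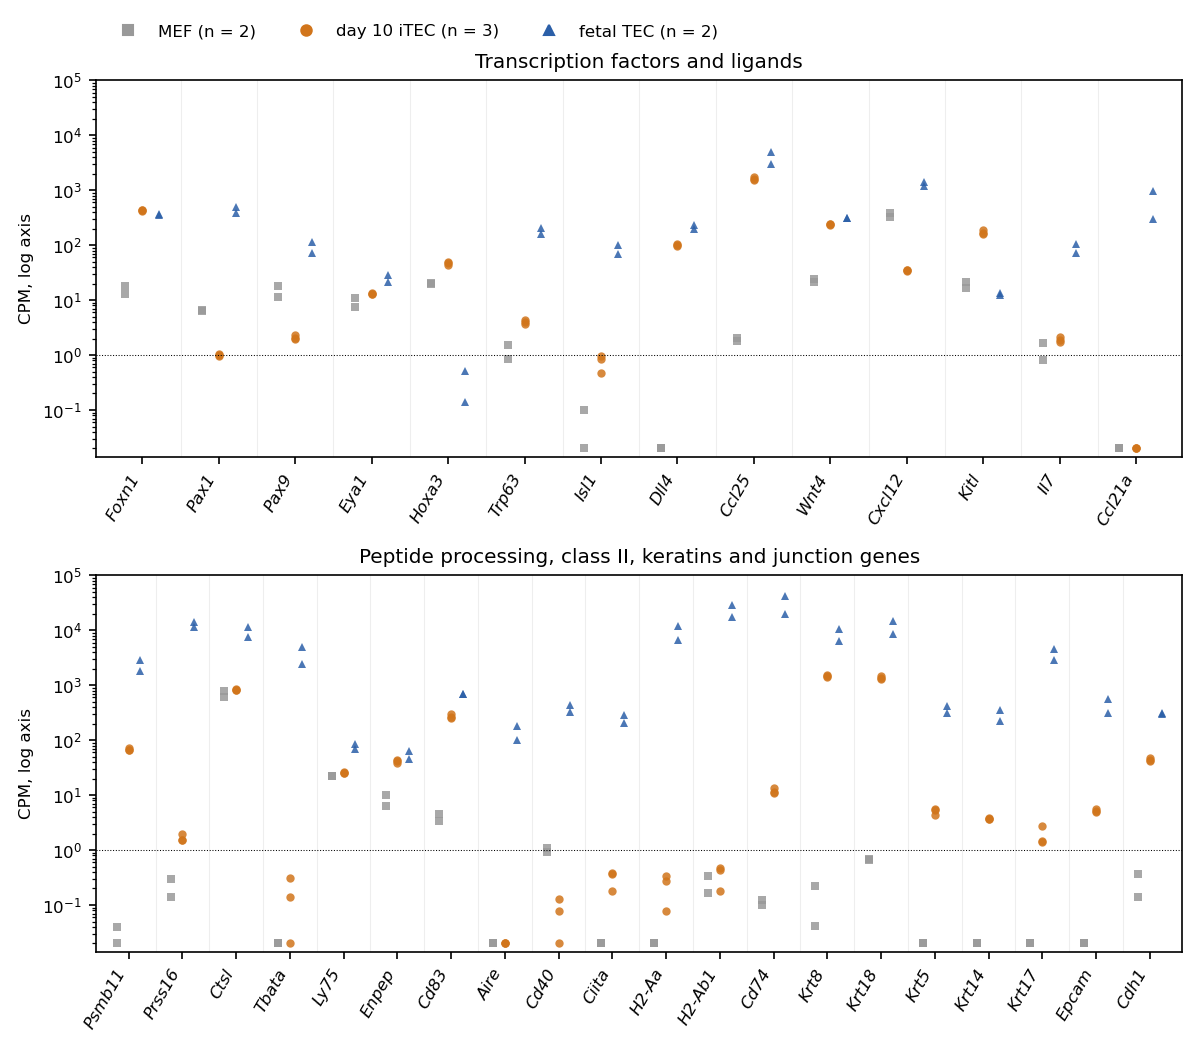
Level of named TEC genes in each MEF (grey squares), day 10 (orange circles) and fetal TEC (blue triangles) library, in CPM on a log axis, with 0 drawn at 0.02 CPM and 1 CPM dotted. Foxn1, Dll4, Wnt4 and Enpep lie close in day 10 and fetal libraries on this scale, which is not corrected for length, whereas Prss16, Tbata, Aire and the class II genes differ by several powers of 10.

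Of 10 genes listed for peptide processing in cortical TEC, 8 were lower and 2 did not pass the test, with a median of -3.17. Not all are particular to these cells. The lower genes include Psma1 and Psmb5, which all cells use, and Ctss, which macrophages also make. Psmb11, the thymoproteasome subunit found in cortical TEC alone, stood at 0.0138 and 0.0401 CPM in MEF and reached 70.7, 66.3 and 66.7 CPM at day 10, against 1786 and 2834 CPM in fetal TEC. This was 2.94% of the fetal mean (-5.09 ± 0.51 SE, adjusted p = 0.000159). Prss16, the thymus-specific serine protease of class II peptide supply, stood at 1.502, 1.51 and 1.97 CPM against 11557 and 14182 CPM, or -12.92 ± 0.95 (SE, adjusted p = 0.000137). Tbata was at 0.139, 0.307 and 0 CPM against 2478 and 5057 CPM; its difference of -14.61 ± 0.89 (SE, adjusted p = 0.000121) was -15.50 without day 10 replicate 2 and -14.00 without fetal replicate 2. Ctsl, the cathepsin that degrades the class II invariant chain in cortical TEC, was at 807, 817 and 871 CPM, little above its MEF level of 610.3 and 783 CPM, and at 7520.3 and 11536 CPM in fetal TEC (-3.52 ± 0.43 SE, adjusted p = 0.000306).

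Among surface markers of cortical TEC, Ly75, the endocytic receptor DEC-205, was at 25.1, 25.1 and 26.3 CPM against 68.4 and 84.2 CPM, with MEF at 21.9 and 22.5 CPM. The difference of -1.58 ± 0.52 (SE) passed (adjusted p = 0.0238), but not with library size alone (adjusted p = 0.0991), with the replicate block (adjusted p = 0.0635) or without any 1 of the 5 libraries (adjusted p from 0.054 to 0.0999). With the length offset it was -4.04 (adjusted p = 9.98e-06). Enpep, the aminopeptidase detected by the Ly51 antibody, was at 42.8, 38.1 and 41.8 CPM against 64.6 and 46.2 CPM (-0.44 ± 0.33 SE, adjusted p = 0.263), and at -2.16 with the length offset (adjusted p = 0.0115). Cd83, which stabilises class II on the surface of cortical TEC, went from 4.52 and 3.45 CPM in MEF to 269, 254 and 299 CPM, against 699 and 696 CPM in fetal TEC. Its difference of -1.35 ± 0.92 (SE) did not pass (adjusted p = 0.219), but did without the Epcam-positive pair in the fit (adjusted p = 0.000424).

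The proteasome subunits Psma1 and Psmb5, which all cells use, were also lower at day 10, with log2 differences of -2.33 ± 0.52 (SE) and -2.81 ± 0.76 (SE, adjusted p = 0.00478 and 0.0115); Psmb5 missed the threshold without fetal replicate 2 (-2.58, adjusted p = 0.0522). Among 8 further cortical markers, 5 were lower and 3 did not pass the test, with a median of -2.26. Pltp, a phospholipid transfer protein, was at 183, 188 and 166 CPM against 2289.9 and 3259 CPM (-3.96 ± 0.32 SE, adjusted p = 4.23e-05). Ackr4, a decoy receptor for Ccl25 and Ccl21, went from 0.166 and 0.140 CPM in MEF to 20.96, 22.01 and 18.9 CPM at day 10, against 96.7 and 98.3 CPM (-2.24 ± 0.39 SE, adjusted p = 0.00149). The synaptic vesicle gene Syngr1 (-3.53 ± 0.74 SE, adjusted p = 0.00414) and Cd274, the inhibitory ligand PD-L1 (-6.60 ± 0.69 SE, adjusted p = 0.00026), were lower at day 10.

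Of 16 medullary genes, 12 were lower and 4 did not pass the test, with a median of -6.23, and 7 were off. Aire, the regulator of tissue antigens, had no count at day 10 against 101 and 183 CPM in fetal TEC, at least 6484-fold higher against 3 counts in the day 10 group (adjusted p = 0.000909). Fezf2, a second regulator of tissue antigens, likewise had no count against 151 and 177 CPM (at least 7704-fold, adjusted p = 0.000435). Cd40 and Tnfrsf11a (RANK) are receptors through which thymocytes drive medullary maturation. Cd40 was at 0.0774, 0.128 and 0 CPM against 329.6 and 445 CPM, or -12.40 ± 0.78 (SE, adjusted p = 2.01e-05), with -13.00 without day 10 replicate 2. Tnfrsf11a was at 4.18, 4.66 and 4.73 CPM against 93.0 and 119 CPM (-4.55 ± 0.32 SE, adjusted p = 1.99e-05), and the NF-kB subunit Relb at 18.2, 17.0 and 15.4 CPM against 325 and 415 CPM (-4.46 ± 0.45 SE, adjusted p = 0.000139). Ltbr, the lymphotoxin receptor, and Tnfrsf11b, the decoy receptor osteoprotegerin, were within 2-fold, at 180.3, 182 and 179 CPM against 109 and 140.1 CPM and at 206, 203 and 209 CPM against 123 and 179 CPM.

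Of the MHC class II genes, Ciita, H2-Aa and H2-Ab1 were off and Cd74 was more than 2-fold below. All 4 tested genes whose rows are not in doubt were lower at day 10; 6 more of the 10 listed genes have rows in doubt. Ciita, the transactivator that switches the class II genes on, was at 0.372, 0.179 and 0.388 CPM against 208 and 286 CPM, or -9.60 ± 0.53 (SE, adjusted p = 2.95e-05). H2-Aa was at 0.279, 0.0769 and 0.336 CPM against 6555 and 11785 CPM (-15.25 ± 1.32 SE, adjusted p = 0.000692), and H2-Ab1, which pairs with it, at 0.480, 0.179 and 0.440 CPM against 17642 and 28335 CPM (-15.91 ± 0.67 SE, adjusted p = 1.09e-05). Cd74, the invariant chain, alone exceeded 1 CPM, at 13.6, 10.8 and 11.4 CPM against 19476 and 41833 CPM. Its difference was -11.33 ± 0.56 (SE, adjusted p = 1.61e-05) and -10.67 without fetal replicate 2. Macrophages and dendritic cells, whose markers were found in fetal TEC above, also carry class II.

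Of 14 class I presentation genes, 1 was higher at day 10, 9 lower and 4 did not pass the test, with a median of -2.44. The immunoproteasome subunits were low: Psmb8 was at 6.78, 6.15 and 5.95 CPM against 322 and 276 CPM (-5.57 ± 0.25 SE, adjusted p = 7.16e-06), Psmb9 differed by -6.97 ± 0.41 (SE, adjusted p = 1.63e-05) and Psmb10 by -5.33 ± 0.47 (SE, adjusted p = 8.8e-05). Psme2, a subunit of the proteasome activator PA28, differed by -3.57 ± 0.42 (SE, adjusted p = 0.000279). Of the chaperones that load peptide, Calr and Pdia3 were within 2-fold. Calr was at 1169.6, 1145 and 1191 CPM against 931 and 1209.6 CPM (0.13 ± 0.28 SE, adjusted p = 0.714), with overlapping groups, and its sign moved with the scaling. Pdia3 was at 1000.1, 993 and 1029.8 CPM against 1282 and 1864 CPM (-0.64 ± 0.33 SE, adjusted p = 0.116), and passed the test in the length offset fit (-1.48, adjusted p = 0.0211). Canx, the chaperone calnexin, was higher at day 10 (2.20 ± 0.42 SE, adjusted p = 0.00373), but not with the length offset (0.53, adjusted p = 0.168). It stood at 555, 868 and 919 CPM at day 10 and 170 and 170 CPM in fetal TEC, and already at 592 and 793 CPM in MEF.

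For the H2 genes in doubt, values can be given only as a reading in the second row order. So read, the class I genes H2-K1 and H2-D1 stood at 275, 279.5 and 303 CPM at day 10 against 7596 and 13707 CPM in fetal TEC and at 326, 331 and 352 CPM at day 10 against 9873 and 16663 CPM, respectively. The class II genes H2-Eb1 (0.480, 0.410 and 0.517 CPM at day 10 against 3105 and 5148 CPM) and H2-DMa (3.53, 3.33 and 3.596 CPM at day 10 against 504 and 601 CPM) then resembled H2-Aa and Cd74 in direction. As deposited, the fetal values under the name H2-K1 were 0 and 0.264 CPM, and under H2afy3, a histone variant gene in the same block, 7614 and 13720.1 CPM.

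Of 18 Notch signalling genes, 6 were higher at day 10, 7 lower and 5 did not pass the test, against 27.6% higher and 31.7% lower over all tested genes, with a median of -0.51; with the length offset 3 were higher and 11 lower. The ligands Dll1 (0.434, 0.461 and 0.414 CPM against 27.9 and 46.4 CPM) and Dll3 (no count against 11.7 and 18.2 CPM) were off. Jag1 was higher at day 10, at 112, 111 and 101 CPM against 0.735 and 1.22 CPM (6.79 ± 0.99 SE, adjusted p = 0.00276), after 151 and 234 CPM in MEF. Jag2 was at 59.1, 57.7 and 57.8 CPM against 70.7 and 81.3 CPM, did not pass (-0.39 ± 0.37 SE, adjusted p = 0.377), and was at -1.34 with the length offset (adjusted p = 0.038). It was nearly absent from MEF (0.193 and 0.0802 CPM). Mfng, a fringe enzyme that tunes Notch receptors, was off, and the Notch target Hey1 was lower (-3.01 ± 0.31 SE, adjusted p = 0.000118). Dtx1, a Notch-induced ubiquitin ligase, was at 142, 132 and 136 CPM against 38.3 and 21.2 CPM (2.20 ± 0.32 SE, adjusted p = 0.00104), and with the length offset at 0.57 (adjusted p = 0.153). Thymocytes, whose markers were present in fetal TEC, also use this pathway, and their part was not tested.

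FGF and BMP are mesenchymal signals on which TEC growth depends. Of 16 genes for their receptors and targets, 8 were higher at day 10 and 8 did not pass the test, with a median of 1.60 (0.47 with the length offset). The called share was 50.0%, all of it higher at day 10, against 59.3% called and 27.6% higher over all tested genes. Msx2, a BMP target, was at 39.6, 38.4 and 40.9 CPM against 0.0459 and 0 CPM and passed the test (adjusted p = 8.17e-05); all of its few fetal counts lay in replicate 1, so no fold is given. The receptor Bmpr1a (3.31 ± 0.29 SE, adjusted p = 0.000102) and the FGF feedback inhibitor Spry2 (3.24 ± 0.52 SE, adjusted p = 0.00197) were higher too. Bmpr1a was at 327, 320 and 342 CPM at day 10, between its MEF levels of 241 and 429 CPM. Etv5, an FGF target, was higher by 1.52 ± 0.28 (SE, adjusted p = 0.0023), which fell to -0.03 with the length offset (adjusted p = 0.944). Fgfr2, the receptor for Fgf7 and Fgf10, was within 2-fold at 86.9, 52.5 and 84.5 CPM against 106 and 143 CPM, and with the length offset its difference was -1.14 (adjusted p = 0.0492). The BMP targets Id1, Id2 and Id3 were within 2-fold too.

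Of 11 tested keratins of simple and basal epithelium, 9 were lower and 2 did not pass the test, with a median of -4.33. Krt8 and Krt18, the keratin pair of simple and cortical epithelium, went from under 1 CPM in MEF to 1447, 1412 and 1542 CPM and to 1374, 1316 and 1462 CPM at day 10, against 6391 and 10372 CPM and 8497 and 15067 CPM in fetal TEC. Krt8 reached 17.5% of the fetal mean (-2.51 ± 0.74 SE, adjusted p = 0.0168) and missed the threshold with the replicate block and without fetal replicate 2, day 10 replicate 1 or day 10 replicate 2 (adjusted p from 0.0512 to 0.087). Krt18 reached 11.7% (-3.09 ± 0.70 SE, adjusted p = 0.00584). Krt5 and Krt14, the keratin pair of basal and medullary epithelium, had no count in MEF and stood at 4.35, 5.53 and 5.33 CPM and 3.61, 3.61 and 3.801 CPM at day 10. Their fetal levels were 315 and 412 CPM and 224 and 349 CPM, and their differences -6.16 ± 0.53 (SE, adjusted p = 0.000248) and -6.29 ± 1.004 (SE, adjusted p = 0.0025). Krt17 was at 2.77, 1.43 and 1.42 CPM against 2836 and 4658 CPM (-10.96 ± 0.91 SE, adjusted p = 0.000279), and Krt15 had no count at day 10 against 41.3 and 70.7 CPM (at least 2558-fold lower, adjusted p = 0.00367). Krt6b also had no count at day 10 and did not pass (adjusted p = 0.0589), although it did with the length offset (adjusted p = 0.0495). Krt6a alone of the list was within 2-fold, at 19.3, 18.8 and 22.2 CPM against 26.4 and 23.6 CPM, with no count in MEF.

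Epithelial junction genes covered the whole range. Of 26 genes, 7 were higher at day 10, 13 lower and 6 did not pass the test, with a median of -1.98; 6 were off. Epcam, the epithelial adhesion molecule used to sort TEC, was absent from MEF and stood at 5.03, 5.05 and 5.53 CPM at day 10 against 312 and 574 CPM, or -6.41 ± 0.66 (SE, adjusted p = 0.000345). Cdh1 (E-cadherin) was at 44.1, 42.4 and 46.6 CPM against 299 and 315 CPM, or -2.79 ± 0.32 (SE, adjusted p = 0.000205). Cdh3 (P-cadherin) differed by -4.06 ± 0.42 (SE, adjusted p = 0.000156), and its MEF level of 139 and 177 CPM had been higher than at day 10. The tight junction genes Cldn3, Cldn6, Cldn7, Ocln, Tjp3 and Marveld2 were off, with Tjp3 at no count against 74.0 and 72.9 CPM. Others exceeded the fetal level, and several of these have long transcripts. Tjp1, the scaffold ZO-1 (median transcript 6102 bases), was at 649, 636 and 631 CPM against 7.67 and 0.629 CPM (7.26 ± 1.12 SE, adjusted p = 0.00446), and 4.94 with the length offset (adjusted p = 0.00218). Its value was 9.99 without fetal replicate 1 and 6.39 without fetal replicate 2. Dsp, the desmosomal plaque protein desmoplakin (8676 bases), was at 855, 828 and 838 CPM against 165 and 191 CPM (2.24 ± 0.54 SE, adjusted p = 0.0103). Its sign turned with the offset (-0.78, adjusted p = 0.0881), and it missed the threshold without fetal replicate 1 (adjusted p = 0.0636) or 2 (adjusted p = 0.0528).

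Among 12 transcription and splicing regulators of epithelium, 1 was higher at day 10, 7 lower and 4 did not pass the test, with a median of -2.07. Grhl2, which keeps epithelial junction genes active, was off (0.248, 0.333 and 0.207 CPM against 40.4 and 44.1 CPM; -7.32 ± 0.96 SE, adjusted p = 0.00155). The Ets factors Elf3 (-6.84 ± 0.47 SE, adjusted p = 5.99e-05) and Ehf (-5.16 ± 0.74 SE, adjusted p = 0.00125) were lower. Grhl1 was higher at day 10, at 90.5, 86.7 and 86.9 CPM against 11.2 and 21.4 CPM (2.43 ± 0.34 SE, adjusted p = 0.000851), but did not pass with the length offset (1.18, adjusted p = 0.0906). Ovol1 and Klf5 were within 2-fold, at 43.7, 42.3 and 44.9 CPM against 47.0 and 91.8 CPM and at 37.4, 34.4 and 33.8 CPM against 35.6 and 30.0 CPM.

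Hemidesmosome and laminin-332 genes, which anchor basal epithelium to its matrix, had a median that turned with the length offset. Of 9 genes, 4 were higher at day 10, 1 lower and 4 did not pass the test, with a median of 1.10. The called share of 55.6% was close to the 59.3% of all tested genes. With the offset the median was -0.80, with 2 higher and 3 lower. Plec (plectin, 14855 bases) differed by 4.17 ± 0.53 (SE, adjusted p = 0.000899) and with the offset by 0.55 (adjusted p = 0.407). Its level was 1133, 1116 and 1031 CPM at day 10 and 1237 and 556 CPM in MEF. Itgb4, the beta chain of the hemidesmosome integrin, differed by 1.59 ± 0.31 (SE, adjusted p = 0.00324) and turned to -0.82 (adjusted p = 0.111). Cd151, a tetraspanin with a short transcript (1157 bases), was at 157, 154 and 158 CPM against 20.8 and 33.8 CPM and kept its difference (2.52 ± 0.32 SE, adjusted p = 0.000567, and 2.94 with the offset). Lamb3, a chain of laminin-332, was within 2-fold at 310.2, 295 and 323 CPM against 186 and 153 CPM, and had no count in MEF.

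Most fibroblast genes followed were higher in the day 10 cultures. Of 35 fibroblast and mesenchyme genes, 21 were higher at day 10, 3 lower and 11 did not pass the test, with a median of 3.04 (1.43 with the length offset, 20 higher and 5 lower). Col1a1, the main chain of type I collagen, was at 8864, 9155 and 8399 CPM at day 10 and 211 and 125 CPM in fetal TEC (5.71 ± 0.87 SE, adjusted p = 0.003). Postn, the matrix protein periostin, was at 10386, 10176 and 10281 CPM against 215 and 148 CPM (5.82 ± 0.54 SE, adjusted p = 0.000285), and the mesenchymal factors Twist1 (115, 110.1 and 116 CPM against 0.0766 and 0.122 CPM; 10.16 ± 0.85 SE, adjusted p = 0.000158) and Prrx1 (617, 600.2 and 609.8 CPM against 4.15 and 0.142 CPM; 8.14 ± 1.15 SE, adjusted p = 0.0034) were higher. Prrx1 was at 12.05 without fetal replicate 1 and 7.21 without fetal replicate 2. Vim (vimentin) did not differ detectably, at 273, 261 and 272 CPM against 254 and 213 CPM (0.20 ± 0.65 SE, adjusted p = 0.804), and its MEF level had been 3476 and 2759 CPM. Dcn, Lum and Snai2 were lower at day 10, Snai2 at 11.4, 11.6 and 11.8 CPM against 142 and 184 CPM (-3.81 ± 0.39 SE, adjusted p = 0.000137). Dcn was at 77.7, 71.3 and 74.4 CPM against 672 and 659 CPM in fetal TEC. Col3a1 did not pass the test, at 1536, 1510 and 1434 CPM against 2543 and 1319 CPM.

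Most Hox genes were higher at day 10. These homeobox genes record position along the body axis, and the thymus arises far forward of the trunk from which MEF mostly derive. Of 37 tested Hox genes, 30 were higher at day 10, 2 lower (Hoxa2 and Hoxb13) and 5 did not pass, against 27.6% and 31.7% of all tested genes. Hoxb9 was at 323, 331 and 327 CPM against 0.628 and 1.03 CPM (8.62 ± 0.36 SE, adjusted p = 9.49e-06), and Hoxa10 at 22.7, 21.3 and 27.2 CPM against 0.138 and 0.203 CPM (7.12 ± 0.32 SE, adjusted p = 7.59e-06). Hoxc8, Hoxc6 and Hoxa9 had no count in fetal TEC and stood at 97.0, 93.3 and 102 CPM, 49.0, 48.3 and 49.8 CPM and 26.9, 26.5 and 31.7 CPM at day 10, at least 3713-fold, at least 1873-fold and at least 1073-fold higher with the fetal group at 3 counts (adjusted p = 1.45e-05, 6.43e-06 and 8.06e-06). Hoxa2, a gene of the anterior end of its cluster, was at 10.5, 10.97 and 10.6 CPM against 19.5 and 47.6 CPM (-1.65 ± 0.39 SE, adjusted p = 0.00586), and missed the threshold without fetal replicate 2 (-0.86, adjusted p = 0.0599). In MEF, Hoxc8 was at 46.0 and 82.9 CPM and Hoxb9 at 54.6 and 68.5 CPM.

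Of 17 tested keratins of the hair follicle, 5 were higher at day 10, 5 lower and 7 did not pass the test. The called share of 58.8% was close to the 59.3% of all tested genes (27.6% higher and 31.7% lower). Among keratins of the hair shaft, Krt83 was at 458, 469.8 and 461 CPM against 3.34 and 1.74 CPM (7.51 ± 0.73 SE, adjusted p = 0.000727), Krt33a at 268, 266 and 285 CPM against 0.199 and 1.38 CPM (8.45 ± 0.98 SE, adjusted p = 0.00173), and Krt85 at 141, 114 and 174 CPM against 5.19 and 10.9 CPM. Krt33a was at 7.64 without fetal replicate 1 and 10.42 without fetal replicate 2. Krt34 and Krt31 had no count in fetal TEC and were at 51.2, 54.9 and 51.4 CPM and 15.3, 16.5 and 16.9 CPM at day 10. Among keratins of the inner root sheath, Krt71, Krt72, Krt73 and Krt25 had no count in any day 10 library, and Krt71 was at 41.5 and 20.9 CPM in fetal TEC. MEF libraries had no count for any of these 9 genes.

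**Figure D5:**
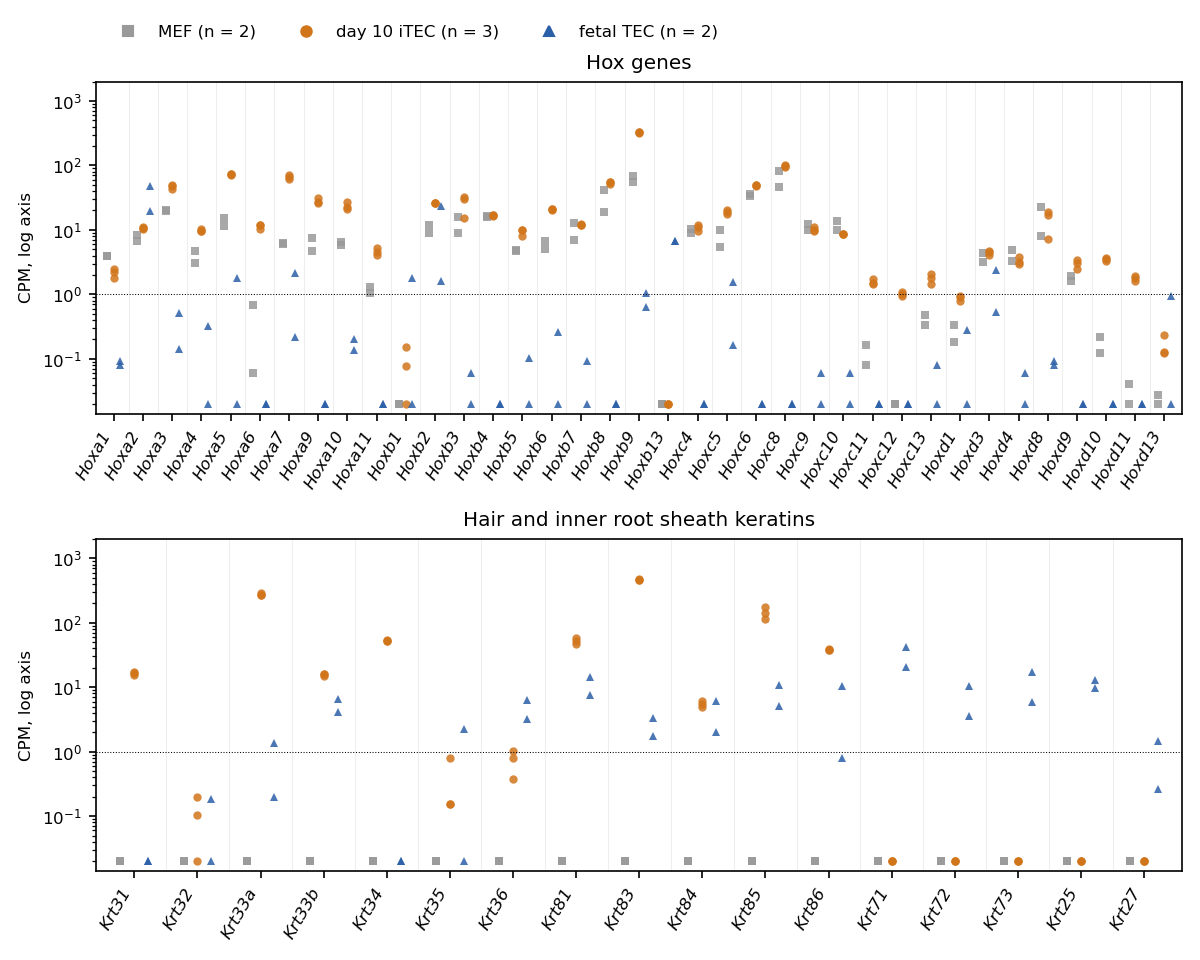
Level of each tested Hox gene (top) and hair follicle keratin (bottom) in MEF (grey squares), day 10 (orange circles) and fetal TEC (blue triangles) libraries, in CPM on a log axis, with 0 drawn at 0.02 CPM and 1 CPM dotted. Day 10 libraries lie above fetal TEC for 30 called Hox genes and for the shaft keratins Krt83, Krt33a, Krt34 and Krt31, and fetal TEC lies above day 10 for Krt71, Krt72, Krt73 and Krt25.

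Of 19 genes of epidermal differentiation, 2 were higher at day 10, 7 lower and 10 did not pass the test, with a median of -1.26. The called share of 47.4% was under the 59.3% of all tested genes. Alox12b, a lipoxygenase of the skin barrier, was higher at day 10, at 129, 118 and 115 CPM against 11.5 and 12.0 CPM (3.36 ± 0.60 SE, adjusted p = 0.00419), and had no count in MEF. The skin protease genes Klk5 (no count against 6.60 and 10.5 CPM) and Klk7 (0.279, 0.538 and 0.362 CPM against 14.6 and 42.3 CPM) and the keratinocyte gene Krtdap (no count against 11.1 and 11.4 CPM) were lower. Loricrin (Lor), a late barrier protein, was low in both groups, at 4.13, 4.20 and 3.41 CPM against 1.38 and 4.18 CPM, with overlapping libraries.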

How the data were processed

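RNA of 13 libraries was analysed from the authors' deposited table, which holds whole-number counts for each gene symbol. The submitters' processing notes name FastQC, Trimmomatic, HISAT2, SAMtools, StringTie, DESeq2 and the mm10 build; no label states strand use or how reads shared by close copies (Ccl21a and Ccl21b, Hba-a1 and Hba-a2, the class II genes) were assigned. The No_Cre columns were assigned to MEF, the only culture group that the labels list without Cre.

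Differences come from edgeR 4.0.16 in R 4.3.3, with TMM scaling, the filterByExpr filter and a robust quasi-likelihood model. The model was fitted to all 13 libraries, and all groups share the estimate of spread. P-values were adjusted by Benjamini-Hochberg over 17004 genes, and a call is an adjusted p under 0.05. DESeq2 1.42.0 was an alternative. Against a group with no count, folds are bounds at 3 counts over the group; genes with 1 to 3 counts in a group are drawn as plain ratios. Transcript length is the median of a gene's coding transcripts in GENCODE release M21, or of all its transcripts where none is coding (96.2% of tested genes); the length offset is a spline with 4 degrees of freedom per library. The code was tested on simulated data.

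Members and gene lists were chosen with earlier results of these data known. The rule named 32 genes in any case, up to 4 called genes without overlap per list by adjusted p, and the 8 largest rises and falls at 10 CPM or more. Genes within 2-fold or off were to be named where a class held 20 or fewer. Both classes were larger and are named all the same, apart from items that are not reported here, which was decided after their values were seen, as were the folds of Pdia3, Calr, Wnt4, Jag1, Jag2, Fezf2, Tjp1, Dsp, Canx, Hoxa2, Krt33a and Prrx1, and any further gene named by its level.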

Additional observations from a re-analysis of the deposited data

How the results depend on the processing

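The count of 10085 changed genes ranged from 7877 to 8440 when each of the 5 libraries was left out in turn. It was 7412 against a 2-fold minimum (glmTreat), 7499 of 11775 with genes of at least 10 CPM in 2 libraries, 10578 with DESeq2's Wald test, 12030 in a fit of the 5 libraries alone and 12744 without the Epcam-positive pair. Across genes, the log2 difference of day 10 replicates 1 and 2 correlated at -0.0058 with that of fetal replicates 1 and 2. This covers only these 2 groups and cannot tell whether a replicate number stands for a shared batch. With a replicate block 7439 genes were called, and among the named genes Dll4, Ly75 and Krt8 lost their call. Without the rows in doubt 9985 of 16863 genes were called, and 10071 in the second row order; both were chosen after seeing the data. The class within 2-fold held 28 to 30 genes and the off class 24 to 27 when a library was left out, and 33 and 25 with the length offset. Its members changed more than these totals. Of the 28 genes within 2-fold, 22 stayed without fetal replicate 1 and 25 without fetal replicate 2, and 28 without any 1 day 10 library. A 1.5-fold limit left 17 genes within, a limit that is narrower by construction. The length rho of 0.271 became 0.357 with the longest transcript and 0.372 with the stricter filter, and ranged from 0.243 to 0.273 with a library left out; the cause was not tested. Named genes that changed sign with the length offset were Foxn1 (-0.92), Meis1 (-0.26), Etv5 (-0.033), Itgb4 (-0.82), Calr (-0.17), Dsp (-0.78), Id2 (0.14), Jup (-0.28), Klf5 (-0.98), Lamb3 (-0.80), Notch1 (-1.36), Spry1 (-0.28), Tnfrsf11b (-0.43), Pkp1 (-0.59). That offset moved the median of all tested genes from -0.10 to -0.66, so these sign changes cannot be credited to length alone. Genes not called in either fit, with differences near 0 or large errors, changed sign elsewhere: Calr (-0.032), Crb3 (-0.12), Klf5 (-0.054) with DESeq2; Calr (-0.032), Crb3 (-0.12), Klf5 (-0.054) with DESeq2 size factors; Id2 (0.094), Six4 (0.25) with library size alone; Klf5 (-0.020) with the stricter filter; Six4 (0.030) with the replicate block. With a library left out, Calr from -0.040 to 0.34, Col3a1 from -0.76 to 0.19, Avpr1a from -1.30 to 1.43, Crb3 from -0.14 to 0.26, Grhl3 from -1.66 to 2.03, Id2 from -0.52 to 0.11, Klf5 from -0.0077 to 0.24, Six4 from -0.25 to 0.27 and Lor from -0.084 to 1.51. Casr and Gcm2 lost their call with DESeq2, which did not converge for Adnp and Ctss. With 2 fetal libraries, which stand apart in length trend, Rn45s and row order, library and cell type cannot be told apart, and below 3 counts (0.0459 CPM in fetal replicate 1) presence could not be told from absence.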

Other observations

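Most genes of the cell cycle list were lower at day 10. Of 40 genes, 1 was higher at day 10, 31 lower and 8 did not pass the test. Their median log2 difference was -2.71, against -0.09 over all tested genes. The called share was 80.0%, against 59.3% of all tested genes (27.6% higher and 31.7% lower). Cdc20, an activator of mitotic exit, was at 9.86, 9.56 and 9.59 CPM at day 10 and 207 and 197 CPM in fetal TEC (-4.38 ± 0.31 SE, adjusted p = 2.01e-05). The mitotic kinases Cdk1 (-2.94 ± 0.25 SE, adjusted p = 4.32e-05) and Aurkb (-4.10 ± 0.30 SE, adjusted p = 2.32e-05) were lower as well. Ccnd1, the cyclin of early G1, was the one gene of the list that was higher, at 441, 423 and 456 CPM against 10.3 and 12.9 CPM (5.24 ± 0.25 SE, adjusted p = 9.29e-06), and 3.71 with the length offset. Thymocytes, whose markers were found in fetal TEC, also divide, and their part was not tested.

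Most interferon-induced genes followed were lower too. Of 30 genes, 1 was higher at day 10, 19 lower and 10 did not pass the test, with a median of -2.34. The called share was 66.7%, against 59.3% of all tested genes (27.6% higher and 31.7% lower). Cxcl10, an interferon-induced chemokine, was at 4.29, 2.46 and 1.86 CPM against 1019 and 1993 CPM (-9.03 ± 0.72 SE, adjusted p = 0.000111). Usp18 (-4.04 ± 0.38 SE, adjusted p = 9.59e-05), Irf7 (-3.29 ± 0.29 SE, adjusted p = 5.81e-05) and Dhx58 (-3.602 ± 0.35 SE, adjusted p = 9.1e-05) were lower, and Oas2 was the single gene that was higher, at 12.4, 9.61 and 8.77 CPM against 0.888 and 0.325 CPM.

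The 8 largest rises and the 8 largest falls at 10 CPM or more all had no count in 1 group. Higher at day 10 were Col11a1, Cemip, Adnp, Ston1, Npy6r, Abca8b, Hoxc8 and Nexn. Col11a1, a cartilage collagen, was at 1006, 1054 and 1006 CPM and at least 38927-fold higher with the fetal group at 3 counts. Adnp, a chromatin gene that most cells use, was at 151, 145 and 156 CPM at day 10 and had no count in either fetal library. It was also at 0 CPM in replicate 2 of the day 12 Epcam-positive cells, but at 52.8 CPM in replicate 1 and 66.0 and 108 CPM in MEF. The libraries without Adnp are those that stood apart in length trend and row order, and the cause was not tested. Higher in fetal TEC were Bpifa1, Ccl21a, Ccl21b, Hba-a1, Hba-a2, Reg3g, Actc1 and Rac2. Bpifa1, a secreted airway protein, was at 1044 and 1321 CPM and at least 55168-fold higher with the day 10 group at 3 counts. Reg3g, an antimicrobial lectin, was at 414 and 519 CPM, and Actc1, cardiac actin, at 221 and 535 CPM. Gapdh, a glycolytic enzyme gene of every cell, stood at 2.86, 7.20 and 0.440 CPM at day 10 and 150.02 and 128 CPM in fetal TEC; it was chosen after its values were seen, and the labels do not say how its reads were assigned.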
